A study of Bos taurus with 13 samples.

Results

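In bovine mesenchymal stem cells, 122 of 16595 genes had a higher mean after 3 days than after 6 h of culture at 37 °C and a lower mean when the 3 days were spent at 40.5 °C. Their means differed little between 6 h of heat and its control, and between a recovery group and the 3-day control. They were chosen by these measured values, and not every one of them passed a test. For each gene the value + 1 was put on a log2 scale and averaged within groups. T is the 3-day control minus the 6 h control, L is 3 days of heat minus the 3-day control, S is 6 h of heat minus the 6 h control, and R is the recovery group minus the 3-day control. Members had a mean normalised value from 50 to under 20000, T of at least 1, L of -0.5 or lower, an absolute S under 0.4 and an absolute R under 0.5.

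The cells were primary cultures from umbilical cord of Bos taurus at early passages, described by their label as mesenchymal stem cells, and polyadenylated RNA was sequenced from 13 of them. Every culture received low glucose medium with fetal serum, glutamine and antibiotics, and the temperature was set a day after seeding. The groups were ShortNT (37 °C for 6 h, the 6 h control, n = 3), ShortHS (40.5 °C for 6 h, n = 3), LongNT (37 °C for 3 days, the 3-day control, n = 2), LongHS (40.5 °C for 3 days, n = 3) and ShortHS_Recovery (40.5 °C for 6 h, then 37 °C for 66 h, the recovery group, n = 2). The labels do not say how many animals the cultures came from, so p-values measure the spread between these libraries, which may be technical.

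Mesenchymal stem cells are adherent stromal cells that divide, make contact with each other and lay down extracellular matrix after they are seeded, and many of their transcripts change along the way. Heat above the body's range unfolds proteins, and cells answer by activating heat shock factor and inducing chaperones, while much other transcription and translation is reduced. A gene that rises with time in culture can be lower under heat because it never rose or because it rose and fell again, and a single harvest after 3 days does not separate these courses. Time in culture, cell density and the day of harvest likewise cannot be told apart in the 3-day control. Nor can fewer cells of a type be told apart from less RNA per cell in bulk samples.

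The table lists Ensembl identifiers without names, and none of its 16595 identifiers was matched to a symbol here. The members are therefore described by their values, with 4 identifiers given. The labelled cell type could not be checked against marker genes for the same reason, and the functions of the members were not analysed here.

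In the groups with 3 libraries, replicate 3 stood apart from replicates 1 and 2. The 3-day control and the recovery group held no replicate 3, and the labels do not say what the number stands for. With a term for replicate 3 beside the group means, limma called 87 of the 122 members at an adjusted p of 0.05, 35 higher and 52 lower in replicate 3, against 31.4% of all tested genes. This count is not independent of the choice of members. A gene that was lower in replicate 3 had a lower 6 h control mean and a lower 3-day heat mean. This raised T and lowered L, since the 3-day control had no such library. In a gene that was higher in replicate 3, T was lowered and L raised instead. The rule gave 105 genes when applied to replicates 1 and 2 alone, and 70 of them were among the 122. Without replicate 3 of the 6 h control alone 45 of the 122 met it, and without replicate 3 of the 6 h heat group 73. Results are therefore given with and without replicate 3.

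Of 11182 genes in the window of mean values, 428 had T of at least 1. L was -0.5 or lower in 237 of these, S was within its limit in 134 of the 237, and R was within its limit in 122 of the 134. Another 80 genes met the limits on T, S and R but had L above -0.5, and they are called the other risers below. The members nearest the limit had T of 1.00 and 1.02, and the nearest genes outside it had T of 0.9997 and 0.996. On the side of L, the nearest members had -0.54 and -0.54 and the nearest other risers -0.47 and -0.47. Within 0.1 of the limit of T there were 16 members and 26 genes just outside, and within 0.1 of the limit of L there were 5 members and 7 genes outside.

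**Figure D1:**
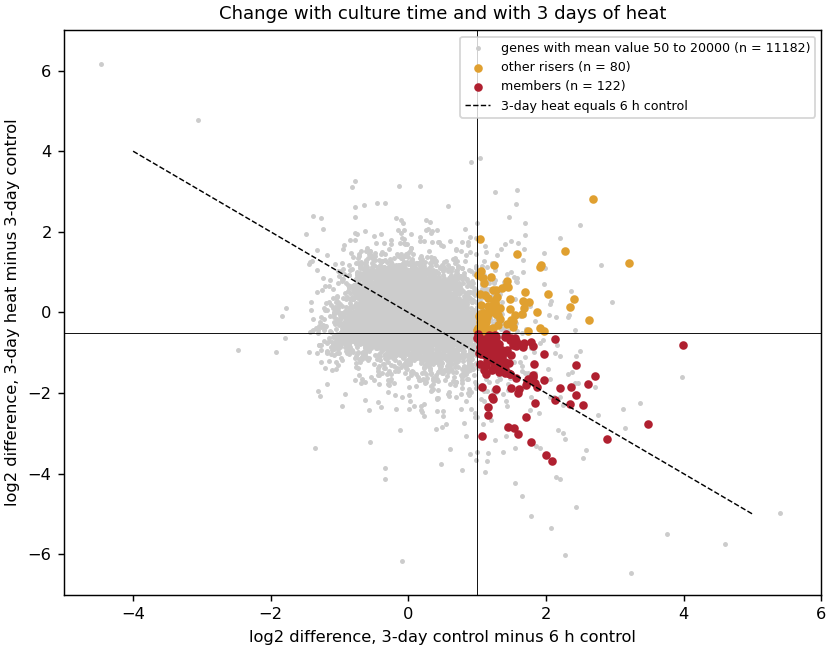
Each point is a gene, with the log2 difference between the 3-day and 6 h controls on the x axis and the log2 difference between 3 days of heat and the 3-day control on the y axis. The 122 members lie to the right of 1 and below -0.5, around the dashed line on which 3 days of heat and the 6 h control are equal, while the 80 other risers lie above -0.5.

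The level of the members followed the same course in most libraries. Relative to the mean of the 6 h control, the median member stood at 0.06, 0.08 and -0.17 on the log2 scale in replicates 1 to 3 of that group, and at -0.01, -0.06 and -0.11 in those of the 6 h heat group. It stood at 1.39 and 1.34 in the 3-day control and at 1.32 and 1.41 in the recovery group. In the 3-day heat group it stood at 0.31, 0.27 and 0.07. The medians of the 3-day heat libraries were near the 6 h groups and about 1 log2 unit under the other 3-day libraries. The limits on T, L, S and R shape this course, so it is a description.

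Together the members took a small share of the normalised values, and the same limits shape how it differs between groups. The 6 h control had a share of 0.372% ± 0.0124 (SD, n = 3), and the 6 h heat group one of 0.346% ± 0.0193 (SD, n = 3). In the 3-day control the members took 0.880% ± 0.0248 (SD, n = 2), with 0.831% ± 0.0239 (SD, n = 2) in the recovery group. Cultures heated for 3 days had 0.408% ± 0.065 (SD, n = 3), with replicate 3 lowest at 0.333%. The mean value of a member over the 13 libraries ran from 51.3 to 10346, with a median of 327, against a median of 671 for all genes in the window.

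**Figure D2:**
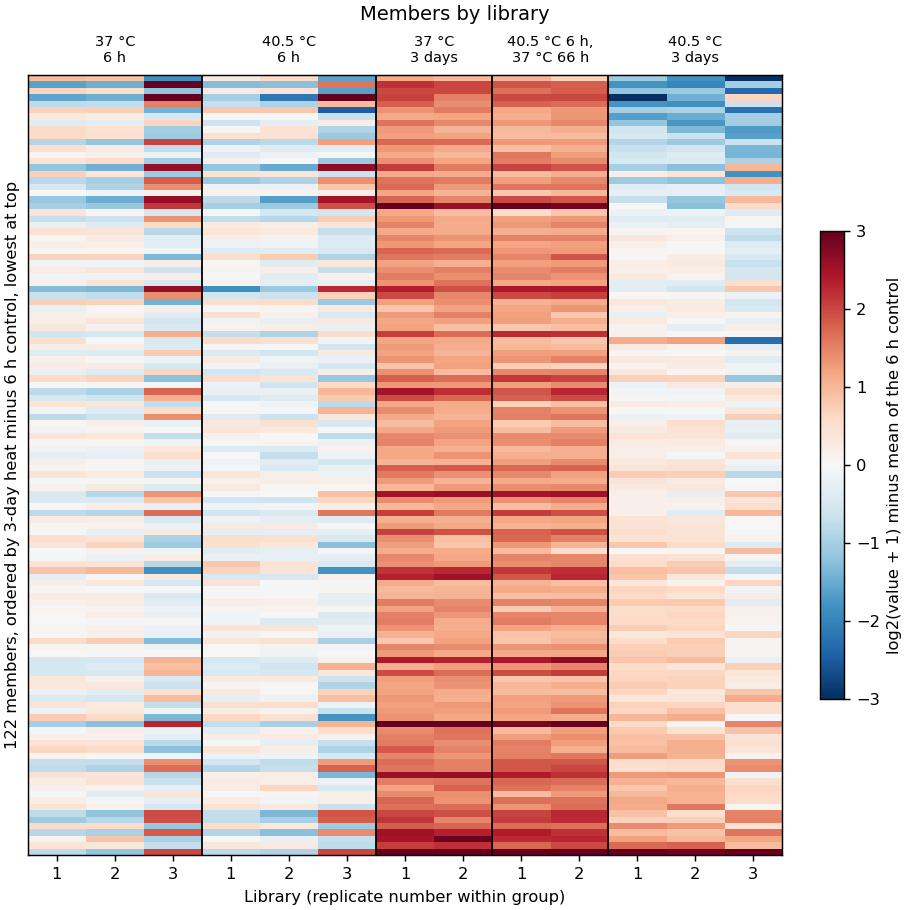
Each row is a member and each column a library, grouped by treatment and numbered by replicate, and the colour gives log2(value + 1) minus the mean of the 6 h control. The 3-day control and recovery groups are raised in every row, the 3-day heat libraries run from lower than the 6 h control at the top to higher at the bottom, and replicate 3 of the 6 h groups is redder or bluer than replicates 1 and 2 in many rows.

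The rise at 37 °C that the rule required ran from 1.00 to 3.99 over the members, with a median T of 1.35, and within replicates 1 and 2 from 0.16 to 4.98 with a median of 1.28. In 107 members both 3-day control libraries lay above all 3 libraries of the 6 h control, a separation found in 25.8% of tested genes. Replicate 3 of the 6 h control accounted for every overlap, since all 122 members were separated in replicates 1 and 2. Limma called 86 members higher in the 3-day control at an adjusted p of 0.05, against 11.7% of tested genes. Without replicate 1 of the 3-day control, which leaves 1 library, it called fewer members and fewer of all tested genes. Since T chose the members, nothing is read from these counts.

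Under 3 days of heat the members lay below the 3-day control, with L from -3.69 to -0.54 on the log2 scale, a median of -1.13 and a median of -1.05 within replicates 1 and 2. All 3 heat libraries lay below both control libraries in 119 members, against 32.9% of tested genes in this direction. Limma called 81 members lower at an adjusted p of 0.05, against 20.3% of tested genes. Without replicate 1 or 2 of the 3-day control, which leaves 1 library, it called fewer members. Fewer of all tested genes were also called without replicate 1. L also chose the members, so these values are a description.

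The other limits kept the members flat. At 6 h of heat their S ran from -0.40 to 0.35 with a median of -0.06, and limma called 1 member, lower under heat, against 31.5% of tested genes. With the replicate block, which took the libraries of this comparison as paired by number, 11 members were called, 3 higher and 8 lower, against 44.6% of tested genes. Within replicates 1 and 2 it was 28 members, also against 44.6%. Without replicate 3 of the 6 h control 12 were called, and without replicate 3 of the 6 h heat group or of the 3-day heat group 2 were. With a library left out in turn, 3228 to 4559 of all tested genes were called. After recovery R ran from -0.49 to 0.49 with a median of -0.03. No member was called in limma, 2 had an unadjusted p under 0.05 against 11.1% of tested genes, and 0.797% of tested genes (109) were called. On recovered reads DESeq2 called 1 member and 316 of all tested genes, and edgeR called 0 members and 103 genes. Within replicates 1 and 2 limma called 15 members, against 13.1% of tested genes (1792), and with the replicate block 3 members, against 5.69% (778). The count over all genes fell to 1 without replicate 1 of the recovery group, 17 without its replicate 2 and 10 without replicate 2 of the 3-day control.

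Because the 3-day control enters T and L with opposite signs, an upward error in its 2 libraries would raise T and lower L together. The recovery group was therefore also set beside the others. This is no independent check, since the limits on T and R together put the recovery mean near the 3-day control and at least 0.5 above the 6 h control. The recovery libraries lay above all 6 h control libraries in 113 members, against 31.1% of tested genes, with a median log2 difference of 1.39. The 3-day heat libraries lay below both recovery libraries in 116 members, against 33.7% of tested genes, with a median of -1.19. When the rule was applied with one 3-day control library for T and the other for L, 127 and 123 genes met it for the 2 assignments, and 111 and 113 of these were members. This cannot show an error that both libraries share, and R still used both. The members were chosen on the same libraries, so nothing is read from the overlap.

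How much of the rise was left under heat was read from 3 days of heat minus the 6 h control, here called D. Its median over the members was 0.20 on the log2 scale, with quartiles of -0.06 and 0.52 and a range from -1.996 to 3.19. Within replicates 1 and 2 the median was 0.34, and without replicate 3 of the 3-day heat group alone it was 0.30. As a percentage of T, D was 14% in the median member, 25% within replicates 1 and 2, and 29.1% within those replicates in the 70 members that met the rule there. The members nevertheless differed widely. In 36 members the measured D was below 0, and in 14 of these it was -0.5 or lower. In 39 members between 0 and 25% of the rise was left, in 30 between 25 and 50%, and in 17 at least 50%. These classes go by measured means, with no test. Within replicates 1 and 2 the same classes held 34, 27, 36 and 25 members.

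D was set against the spread between libraries. All 3 heat libraries lay above all 3 libraries of the 6 h control in 17 members, against 29.3% of tested genes, and below them in 4, against 28.7%. Limma called 20 members higher and 7 lower at an adjusted p of 0.05, against 24.8% of tested genes in each direction. T and L together fix D, so nothing is read from these counts. The members' median residual SD within groups was 0.41 on the log2 scale against 0.17 for all tested genes, and their median SE of D was 0.29 against 0.14. Without replicate 1 or 2 of the 3-day heat group limma called 14 or 15 members. Over all tested genes it called 5870 without that replicate 1, against 6793 with all libraries. The replicate numbers set replicate 3 apart in both the 6 h control and the 3-day heat group, but did not separate numbers 1 and 2. With the replicate block 59 members were called, 44 higher and 15 lower, against 61% of tested genes. Within replicates 1 and 2 it was 80, of which 63 were higher, against 59.6%. The number called thus depended on how replicate 3 was treated.

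The difference between same-numbered libraries was similar in numbers 1 and 2 and lower in number 3 in the median member. Its median over the members was 0.34 for number 1, 0.34 for number 2 and -0.04 for number 3. It was below 0 in 30, 34 and 63 of the 122 members. In number 3 it was below 0 in 50.7% of 11166 genes in the window, near the members' share. The share over all genes is not given for numbers 1 and 2. A total of 38 members were above the 6 h control in all 3 numbers, 14 were below it in all 3, and 70 were mixed. T and L together fix the mean of these differences, so nothing is read from these counts. Among the 80 other risers the medians were 1.45, 1.55 and 1.51, and 0, 0 and 2 genes were below 0. The separation of the members from the other risers in D follows from the limit on L that divides them.

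**Figure D3:**
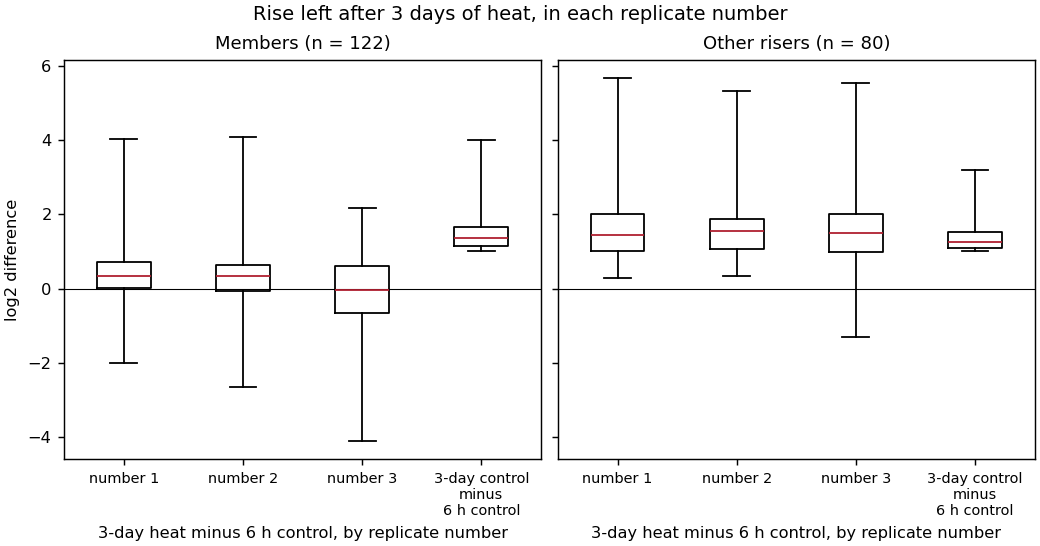
Boxes give the quartiles and median over genes, and whiskers the whole range, of the log2 difference between 3 days of heat and the 6 h control within each replicate number, beside the rise of the 3-day control. The members' medians are 0.34, 0.34 and -0.04 against a rise of 1.35, while those of the other risers are 1.45, 1.55 and 1.51 against 1.26.

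The member with the largest T was ENSBTAG00000015366. In replicates 1 to 3 its normalised value was 78.8, 59.7 and 546 in the 6 h control and 78.7, 73.0 and 555 after 6 h of heat. It was 2778 and 1747 in the 3-day control, 2000.1 and 2701 in the recovery group, and 1299, 1028 and 1513 after 3 days of heat. All 3-day libraries were above all 6 h libraries, replicate 3 was far above replicates 1 and 2 at 6 h, and the 3-day heat libraries were the lowest of the 3-day libraries. T was 3.99 (SE 0.93) and L was -0.80 (SE 0.93, limma adjusted p 0.522), an SE that includes the spread between replicate 3 and the others. This member kept 79.95% of its rise under heat, the largest share of any of the 122 over 13 libraries. Within replicates 1 and 2 it kept 81.3%, where the highest share of a member was 102%.

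ENSBTAG00000003763 had the next largest T. Its values were 42.7, 36.0 and 432 in the 6 h control, 52.4, 44.1 and 178 after 6 h of heat, and 955 and 1027 in the 3-day control. They were 633 and 781 in the recovery group and 131, 93.3 and 243 after 3 days of heat. The heat libraries lay below both other 3-day groups and, in replicates 1 and 2, above the 6 h groups, while replicate 3 of the 6 h control lay above all 3 heat libraries. T was 3.48 (SE 0.91) and L was -2.78 (SE 0.91, limma adjusted p 0.0305). L also chose the members, so nothing is read from this p-value. Of the rise 20.2% was left under heat, and 31.8% within replicates 1 and 2.

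ENSBTAG00000037778 had the lowest L. Its values were 178, 194 and 4529 in the 6 h control and 217, 227 and 1653 after 6 h of heat. They were 2461 and 2151 in the 3-day control, 1997 and 1864 in the recovery group, and 154, 139 and 261 after 3 days of heat. Replicate 3 of the 6 h control lay above every other library, the 3-day controls of replicates 1 and 2 included, and there was no 3-day control of replicate 3 to set it against. T was 2.09 (SE 1.22, limma adjusted p 0.229) over 13 libraries and 3.63 within replicates 1 and 2. L was -3.69 (SE 1.22, limma adjusted p 0.0311), and within replicates 1 and 2 it was -3.97. D was -1.60 (SE 1.09, limma adjusted p 0.245), with an adjusted p of 0.017 under the replicate block in limma, and -0.34 within replicates 1 and 2. The block takes the same shift of replicate 3 in every group. Here replicate 3 stood far higher at 6 h, at 4529 against 178 and 194, than under heat, at 261 against 154 and 139. This member was picked for its low L, which enters D, so nothing is read from these p-values.

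ENSBTAG00000020097 had the next lowest L and the opposite pattern in replicate 3. Its values were 949.7, 879 and 268 in the 6 h control, 719, 799 and 196 after 6 h of heat, and 2421 and 2429 in the 3-day control. They were 1915 and 2126 in the recovery group and 268, 279.8 and 119.7 after 3 days of heat. Within each replicate number the 3-day heat library was the lowest of its series, and the 3-day control and recovery libraries were the highest of all 13. L was -3.54 (SE 0.64, limma adjusted p 0.00148). D was -1.54 (SE 0.57, limma adjusted p 0.0427), but this member was picked for its low L, so nothing is read from either p-value. Replicate 3 of the 6 h control, at 268, was level with the heat libraries of replicates 1 and 2, at 268 and 279.8.

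**Figure D4:**
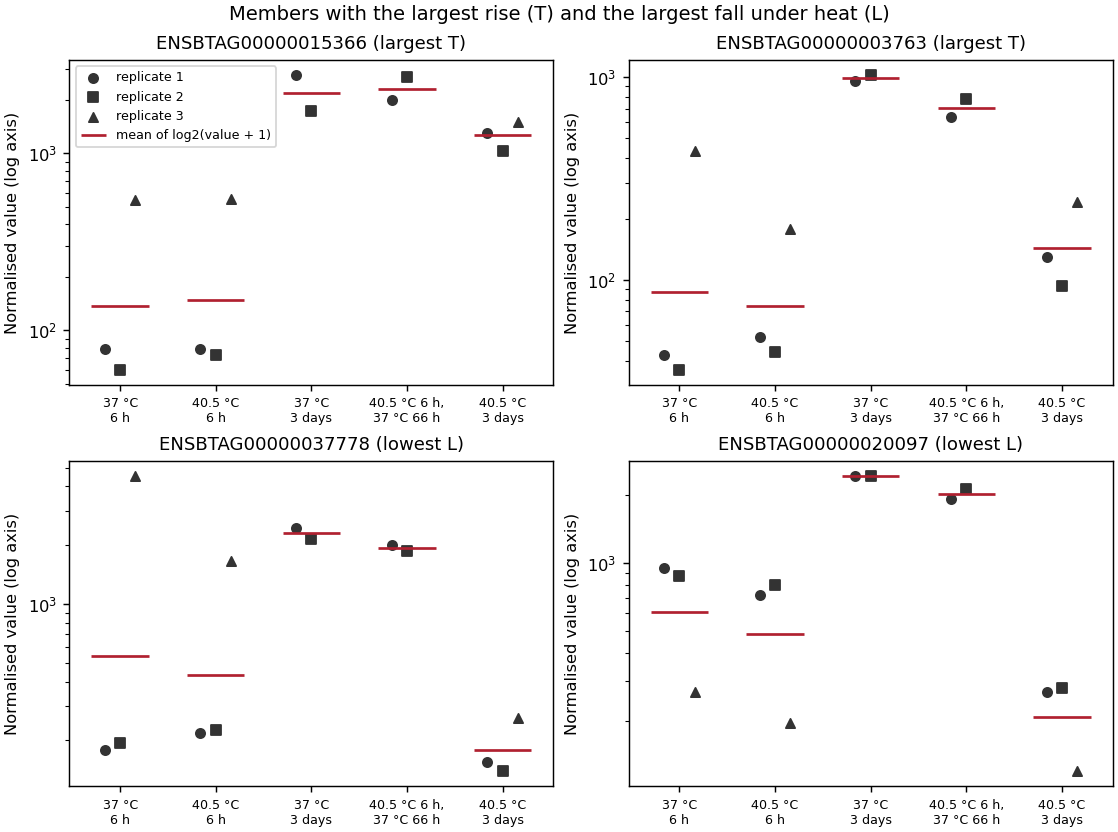
Normalised values on a log axis for the pair of members with the largest T (upper panels) and the pair with the lowest L (lower panels), by group, with 1 symbol per replicate number and a line at the mean of log2(value + 1). The 3-day heat values lie below those of the 3-day control and recovery groups in each panel, and replicate 3 departs from replicates 1 and 2 at 6 h, upward in 3 panels and downward in that of ENSBTAG00000020097.

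The members split by their level in replicate 3. In the 35 called higher, the median difference between replicate 3 and replicates 1 and 2 was 2.10 on the log2 scale in the 6 h control, 1.56 after 6 h of heat and 0.70 after 3 days of heat. For these genes replicate 3 of the 6 h control was already close to the 3-day control, with a median difference of -0.28 and 11 genes above it, while replicates 1 and 2 stood at -2.41. Their rise within replicates 1 and 2, with a median T of 2.41, was larger than over 13 libraries, with a median of 1.71, as follows from leaving out the higher library. The difference of same-numbered heat and 6 h control libraries was 0.60 and 0.57 in the median for numbers 1 and 2 and -0.68 for number 3. Since these genes were picked for a high replicate 3, in which the 6 h control takes part, these values are a description.

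In the 52 members called lower in replicate 3, the medians were -1.03 in the 6 h control, -0.87 after 6 h of heat and -0.67 after 3 days of heat. Their median T fell from 1.31 over 13 libraries to 1.05 within replicates 1 and 2, and 21 of them met the rule there. In the higher class 29 of 35 did, and among the 35 members not called 20 did. Within replicates 1 and 2 T was above 0 in all 122 members and L below 0 in 121 of them. The rule chose the members on these same libraries among others, so nothing is read from these signs. Of the 52 members that did not meet the rule in those replicates, 35 had T under 1, 12 had L above -0.5, 16 had S outside its limit and 1 had a mean value outside the window. Some failed in more than 1 respect.

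**Figure D5:**
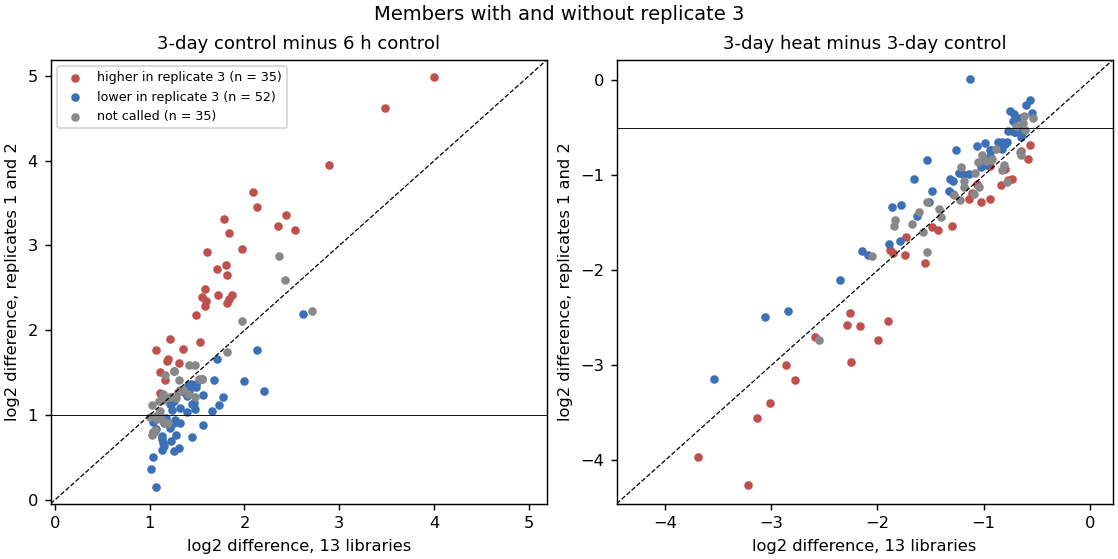
For each member, the log2 difference over 13 libraries (x axis) is set against that within replicates 1 and 2 (y axis), for culture time (left) and 3 days of heat (right), coloured by the replicate 3 term. Members higher in replicate 3 lie mostly above the dashed line of equality for culture time and those lower in replicate 3 mostly below it, and 35 members lie under the limit of 1.

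Replicate 3 also allowed a reading in libraries that took no part in the choice. The 105 genes that met the rule in replicates 1 and 2 had a median T of 1.36 and a median D of 0.40 there. In replicate 3, 3 days of heat minus the 6 h control had a median of -0.24, with quartiles of -0.79 and 0.14, and it was below 0 in 73 genes (69.5%). In the other 32 it was not below 0. For 96 genes that rose in replicates 1 and 2 under the same limits on S and R but with L above -0.5, the median in replicate 3 was 1.13, with 8 genes below 0. For all 11166 genes in the window the median was -0.01, with 50.7% of them below 0. For the 105 genes replicate 3 of the 6 h control differed from the 3-day control by -0.76 in the median, and for the 96 genes by -1.07. The 105 genes thus lay nearer to the 3-day control there than in replicates 1 and 2. But the 3-day control took part in the choice of both sets, which required a large T in replicates 1 and 2. A left-out library can lie nearer for that reason alone, so nothing is read from these values. The 3-day control had no replicate 3, so no rise was measured in that replicate. The difference between 3 days of heat and the 6 h control in replicate 3 rests on single libraries, so no test was made.

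The limit on S was met in replicates 1 and 2 by choice, and replicate 3 took no part in it. Among the 105 genes S of replicate 3 was within 0.4 of 0 in 58 (55.2%), with a median of -0.20, while it was within 0.4 in 65.5% of all genes in the window and in 64 of the 96 other genes. These too are differences between single libraries, with no test.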

How the data were processed

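RNA-seq of 13 cultures was analysed from a single table of 16595 genes. Its values are a normalised signal per gene, as deposited by the authors. The submitters' processing notes list cutadapt, STAR, HTSeq, DESeq and the build ARS-UCD1.2; versions, settings and strand are not given in the sources used here, so overlapping and antisense genes cannot be told apart. In each library 100% of values were whole multiples, within 0.01 reads, of the value of 1 read. Recovered reads ran from 14859428 to 39117065 per library. In the 3-day control and recovery libraries each member had at least 37 reads, and elsewhere at most 4 members per library had under 10, the lowest being 1 read after 3 days of heat. With 2 or 3 libraries a group, the number of libraries limits the precision.

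Genes with a value of at least 10 in at least 2 libraries (13684, all 122 members among them) were fitted on log2(value + 1) with limma 3.58.1 in R 4.3.3. The model had 5 group means, a variance trend and Benjamini-Hochberg adjustment over all tested genes, and tests were two-sided at 0.05. Fold changes on this scale understate changes of low genes. Groups and numbers come from sample titles. Titles give 66 h of recovery where the series text gives 3 days, and titles were used. The limma fit was tested on simulated data with known changes after 3 days of heat. Those data had the same dispersion for every gene and no difference of replicate 3. The simulation therefore does not cover the wider spread of the members. Alternatives were other scalings, pseudocount and filter, edgeR 4.0.16 and DESeq2 1.42.0 on recovered reads, a replicate block, and left-out libraries. On recovered reads edgeR called 3511 genes for T, 5538 for L, 4356 for S, 103 for R and 6888 for D.

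Replicate numbers were checked for pairing by the correlation of deviations from group means across genes. In the 9 same-numbered pairs among the groups of 3, r was between 0.27 and 0.72, so the numbers were taken to pair these libraries. The 6 pairs of replicates 1 and 2 with different numbers gave 0.27 to 0.48, so the pairing sets replicate 3 apart and does not separate numbers 1 and 2. In the 14 pairs with a group of 2 it was between -0.05 and 0.13, which gave no sign of pairing. Those groups hold no replicate 3, and numbers 1 and 2 were not separated among the groups of 3 either. Whether the numbers pair the groups of 2 therefore could not be settled. The labels give no reason for the pairing.

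Members, lists and tests were chosen with earlier results of these data known. The gene lists, markers, promoters and proteins planned could not be used without names or sequences. The naming rule was therefore reduced to the 2 members with the largest T and the 2 with the lowest L. The comparisons with the recovery group, with separate 3-day control libraries and of replicate 3 alone were chosen after seeing the data.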

Additional observations from a re-analysis of the deposited data

How the results depend on the processing

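Of 272 counts recomputed under an alternative, 231 stayed within 1.5 times their value and 41 moved further. The members' median for 3 days of heat against the 6 h control was 0.20, and 0.34 within replicates 1 and 2. Counts are of limma calls unless DESeq2 is named. For recovery against the 3-day control, 109 genes and 0 members were called. The genes became 60 under upper quartile scaling, 316 in DESeq2, 778 with the replicate block, 795 with a term for replicate 3 and 1792 within replicates 1 and 2. The members became 1, 3, 3 and 15 in the last 4 of these. For 6 h of heat, 1 member became 11 with the replicate block, 12 with the term and 28 within replicates 1 and 2. Of all tested genes, 4311 became 6107, 6092 and 6108 there. For 3 days of heat against the 6 h control, 27 members became 59, 60 and 80. Of all tested genes, 6793 became 8351 with the block and 8154 within replicates 1 and 2. The 3467 genes called for culture time became 5950 within replicates 1 and 2. Beyond the recovery counts and the member counts for 6 h of heat and for D, the block moved no count by over 1.5 times. Among the 4 genes given by identifier it called L of ENSBTAG00000015366 (-1.49, limma adjusted p 0.0216) and T of ENSBTAG00000037778 (3.02, limma adjusted p 0.00193). T and L chose these genes, so nothing is read from these p-values. Whether the numbers pair the 3-day control could not be settled. The rule gave 199 genes at limits of 0.8 and -0.4, and 70 of the 122 members met it within replicates 1 and 2. With a library left out in turn, 872 to 3928 genes and 39 to 98 members were called for culture time, and 3339 to 6242 genes and 46 to 99 members for 3 days of heat against the 3-day control. The ranges were 1 to 12 members for 6 h of heat, 1 to 162 genes and 0 to 1 members for recovery, and 14 to 35 members for 3 days of heat against the 6 h control, while 45 to 121 members met the rule. The lowest values for culture time and for heat against the 3-day control came without replicate 1 of the 3-day control, which leaves a lone library assumed to vary like the other groups. The low counts for 3 days of heat against the 6 h control came without replicate 1 or 2 of the heat group. Over all tested genes, 3228 to 4559 were called for 6 h of heat and 5870 to 7146 for D. The cause of these changes was not tested. At most 4 members a library had under 10 reads, where depth limits a value.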
